A study of Homo sapiens with 9 samples.

Results

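The genes described here make cholesterol and fatty acids. They comprise 20 genes of the path from acetyl-CoA to cholesterol, 8 genes of fatty acid synthesis and desaturation, and 6 genes that control the transcription of both sets or carry sterol inside the cell. Members were a list of 34 symbols, matched to the symbol column of the counts tables, and each gene was represented by the RefSeq transcript whose counts summed over the 9 samples were the highest. All 34 were present among the 25680 symbols in the tables, and all 34 were among the 14199 genes that passed the filter on low counts.

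mRNA was sequenced in SKNO-1, a line grown from a human acute myeloid leukaemia with the AML1-ETO fusion protein, which every group carried. The 9 samples formed 3 groups of 3: EV, the control, and SH2 and SH3, each with an shRNA against ASXL2, a chromatin-associated protein of the ASXL family. The labels do not explain the abbreviation EV, while the study describes a control shRNA. Each group has samples numbered 1, 13 and 25, without a statement of what the numbers stand for, and no time or dose is given. The study maintained the cells in medium with fetal serum and GM-CSF and states that the samples were biological triplicates, but the labels do not say that they were separate cultures, so the p-values measure the spread between these samples only. The groups come from 1 cell line, and the extraction protocol in the labels is one for sorted marrow and does not match the cell line named there.

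Library totals were 27714431 to 35406063 counts with 1 transcript per gene, at which 3 counts correspond to 0.0847 to 0.108 CPM (counts scaled to TMM-adjusted library size), a floor that covers counting error only. ASXL2 was at 67.9, 30.4 and 26.9 CPM in the EV, SH2 and SH3 samples numbered 1, 67.9, 36.2 and 29.1 in those numbered 13, and 74.7, 36.2 and 41.1 in those numbered 25, so that each knockdown sample lay below each control. Without the replicate number in the fit, its log2 difference from EV was -1.03 with SH2 and -1.12 with SH3 and did not pass the threshold (edgeR adjusted p 0.808 and 0.612). With the number as a block, the differences were -1.04 and -1.13 and passed (edgeR adjusted p 0.00469 and 0.00407). Of 6 markers of AML1-ETO blasts, RUNX1T1, KIT, MPO, CD33 and SPI1 passed the filter, whereas CD34 was at or below 0.309 CPM in every sample. Of 15 markers of T cells, B cells, fibroblasts, epithelium and mature erythroid cells, CD79A alone passed it, and the summed level of the 15 was 2.67 to 4.02 CPM in the samples numbered 1 and 2.04 to 3.29 CPM in the others. The SH3 sample numbered 1 stood apart from the other 8: its score on the first principal component, which held 52.9% of the variance, was -58.6, against -24.9 and -21.2 for the EV and SH2 samples numbered 1 and 4.84 to 25.0 for the rest. The comparisons of numbers and the medians of the knockdown comparisons are given with and without it. The fits with the number as a block, and the differences of single genes in the neighbouring pathways, are given only with it.

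Cholesterol is built from acetyl-CoA through mevalonate, farnesyl diphosphate, squalene and lanosterol, and fatty acids are built from the same acetyl-CoA by carboxylation and repeated condensation. Most enzymes of both paths are transcribed under the sterol regulatory element binding proteins (SREBPs), which are made as membrane proteins of the endoplasmic reticulum. SCAP escorts them to the Golgi, where they are cut and a transcription factor is released, and the INSIG proteins hold SCAP back when sterols are plentiful. SREBF2 encodes the form that acts mainly on cholesterol genes and SREBF1 the form that acts mainly on fatty acid genes. The mevalonate pathway has drawn interest in myeloid leukaemia because statins slow the growth of leukaemic cells in culture.

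Per kilobase of transcript, the mean level in EV was highest for FDFT1 (204 CPM per kilobase), FADS2 (191), FASN (180) and SCD (161) and lowest for ELOVL6 (4.34) and INSIG2 (5.10). These lengths come from GENCODE transcripts and the levels from 3 samples, so neighbours in this order were not tested against each other.

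The first comparison set the samples numbered 1, one of each group, against the 6 samples numbered 13 and 25. Of the 34 genes, 28 were higher in the samples numbered 1, 1 was lower and 5 did not pass the test (edgeR quasi-likelihood test with group as a further term, adjusted p under 0.05 over all genes). Across all 14199 genes, 24.1% were called higher and 22.2% lower, 46.3% in all. The median log2 difference of the 34 genes was 0.52, beside 0.01 over all genes tested. INSIG2 had the largest, 1.59, followed by HMGCS1 (1.26), MSMO1 (1.23) and STARD4 (1.16). Without the SH3 sample numbered 1, 27 of the 34 genes were higher and 1 was lower, FASN in place of ACACA (-0.27, edgeR adjusted p 0.034), with a median of 0.38, and 17.3% of all genes were called higher. By role the medians were then 0.40 for the mevalonate pathway, 0.36 from squalene to cholesterol, 0.47 for SREBP control and sterol transport and 0.36 for fatty acid synthesis. Of the single genes, EBP lost its call (0.17, edgeR adjusted p 0.109), and the difference fell by a factor above 1.5, with the call kept, for FDPS (to 0.33), LSS (0.27), ACAT2 (0.22), ACSS2 (0.60) and ELOVL6 (0.29). HMGCS1 and MSMO1 were then at 0.94 and 0.93.

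The groups were also compared by overlap. For 20 of the 34 genes, all 3 samples numbered 1 lay above all 6 others, a pattern found in 14.4% of all genes tested, and for 0 of the 34 did they lie below all others, as they did for 12.1% of genes. Leaving aside the SH3 sample, the EV and SH2 samples numbered 1 lay above all 6 others for the same number, 20 of 34 genes, and for 15.3% of all genes. In each of the 3 groups the sample numbered 1 was the highest of its group for 26 of the 34 genes, against 23.1% of all genes. The exceptions were PMVK, NSDHL, EBP, SREBF1, SCAP, FASN, ACACA and ACLY.

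**Figure D1:**
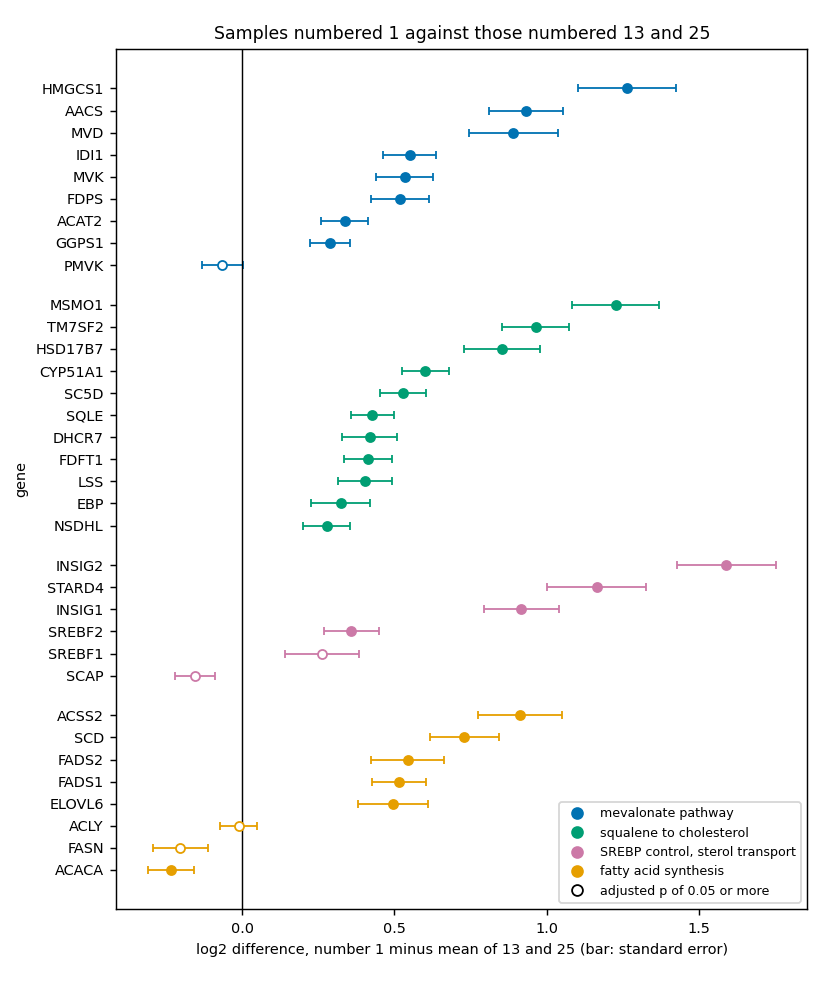
Log2 difference of each of the 34 genes between the samples numbered 1 and those numbered 13 and 25, with its standard error as the bar, coloured by role and open where the adjusted p was 0.05 or more. INSIG2 lies at 1.59 and HMGCS1, MSMO1 and STARD4 above 1, and 5 genes lie below 0, of which ACACA at -0.23 passed the test.

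**Figure D2:**
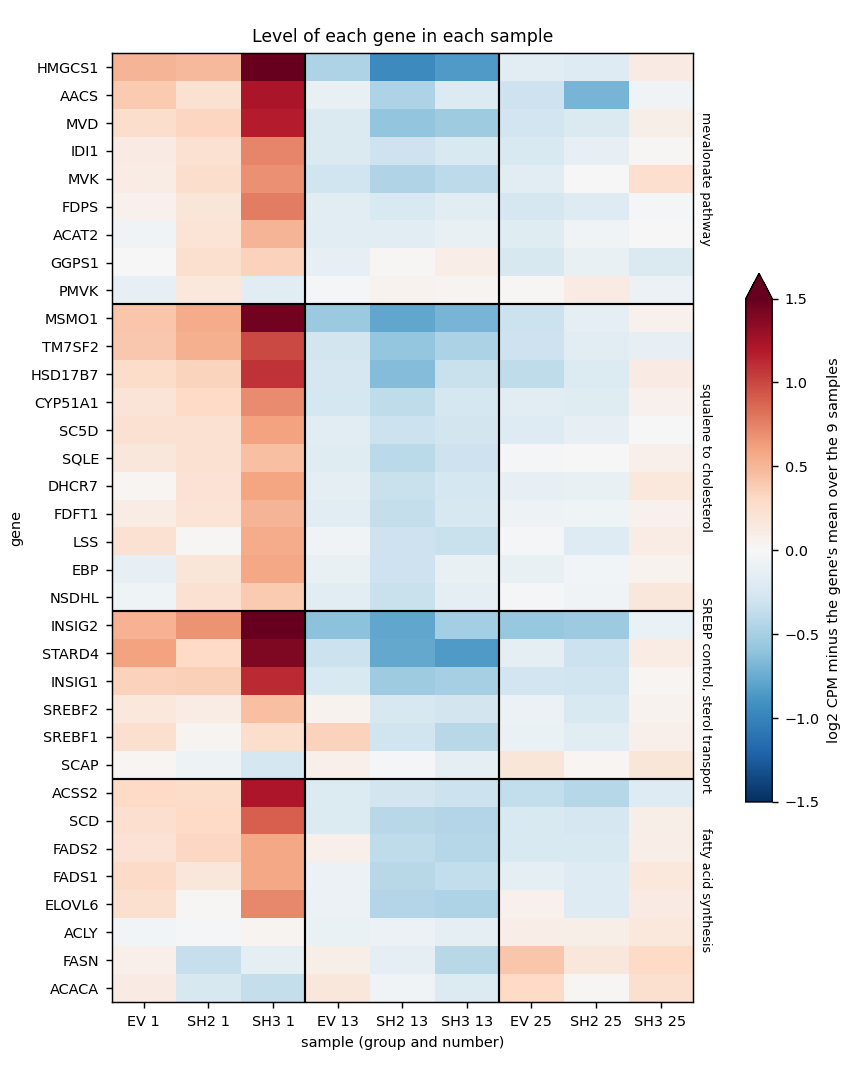
Level of each of the 34 genes (rows, by role) in each of the 9 samples (columns, by number), as log2 CPM minus the gene's mean over the 9 samples, with red above and blue below that mean. The 3 samples numbered 1 are red for most rows and most strongly in SH3, whose median over the 34 genes was 0.59, against 0.20 in EV and 0.23 in SH2, while the median in the samples numbered 13 was -0.35 to -0.16; ACLY, FASN, ACACA, SCAP and PMVK do not share the pattern.

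The mevalonate pathway leads from acetyl-CoA to the isoprenoid diphosphates. Of its 9 genes here, 8 were higher in the samples numbered 1 and PMVK was not called, with a median log2 difference of 0.53. HMGCS1 (NM_001098272, chromosome 5, 43287572 to 43313614, minus strand, GRCh37), the synthase that makes HMG-CoA, was at 599.6, 587 and 1184 CPM in the EV, SH2 and SH3 samples numbered 1, 304, 217 and 233 in those numbered 13, and 377, 366 and 458 in those numbered 25. Its log2 difference was 1.26 (SE 0.16, edgeR adjusted p 0.000469). The lowest sample numbered 1 was above the highest of the other 6. AACS (NM_023928, chromosome 12, 125549980 to 125627879, plus strand), which activates acetoacetate for lipid synthesis in the cytosol, was at 29.4, 26.4 and 52.4 CPM in number 1 (EV, SH2 and SH3), against 20.8, 16.2 and 19.5 in number 13 and 18.0, 13.8 and 21.7 in number 25. The difference was 0.93 (SE 0.12, edgeR adjusted p 0.000489), and again the 2 sets of samples did not overlap.

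The remaining genes of the pathway had smaller differences. MVD, which decarboxylates mevalonate diphosphate, differed by 0.89, with 73.8 to 139 CPM in the samples numbered 1 and 40.8 to 65.1 CPM in the others. IDI1, the isomerase of isopentenyl diphosphate, differed by 0.55, with 210.4 to 321 CPM in the samples numbered 1 and 155 to 195 CPM in the others. FDPS, the farnesyl diphosphate synthase, differed by 0.52, with 227 to 371 CPM in the samples numbered 1 and 183 to 214 CPM in the others. These 3 genes did not overlap between the sets. MVK, the mevalonate kinase, differed by 0.53, with a range of 32.6 to 48.7 CPM against 22.0 to 35.9 CPM. ACAT2, a thiolase that joins acetyl-CoA units, and GGPS1, the geranylgeranyl diphosphate synthase, differed by 0.34 and 0.29. All of MVK, ACAT2 and GGPS1 overlapped between the sets although they passed the test. PMVK, the phosphomevalonate kinase between MVK and MVD, was at 30.9 to 38.6 CPM in the samples numbered 1 and 32.7 to 37.6 CPM in the others, with a difference of -0.06 (SE 0.07, edgeR adjusted p 0.447). The counts of ACAT2 are uncertain, since 29.9% of its exon bases overlap TCP1 on the opposite strand and the libraries were not stranded.

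All 11 genes from squalene to cholesterol were higher in the samples numbered 1, with a median log2 difference of 0.43 and a range of 0.28 to 1.23. MSMO1 (NM_006745, chromosome 4, 166248819 to 166264316, plus strand), the methylsterol oxidase that acts on lanosterol-derived intermediates, was at 111, 123 and 228 CPM in the EV, SH2 and SH3 samples numbered 1, 56.7, 48.6 and 51.3 in those numbered 13, and 66.4, 75.9 and 87.5 in those numbered 25. Its difference was 1.23 (SE 0.14, edgeR adjusted p 0.000327). The SH3 sample was the highest of all, and the EV and SH2 samples numbered 1 were still above every sample numbered 13 or 25. TM7SF2 (NM_003273, chromosome 11, 64879317 to 64883856, plus strand), a sterol reductase of the endoplasmic reticulum, was at 23.4, 14.7 and 14.2 CPM in EV (numbers 1, 13 and 25), 25.6, 11.8 and 15.9 in SH2 and 35.2, 12.7 and 16.3 in SH3, a difference of 0.96 (SE 0.11, edgeR adjusted p 0.000327). HSD17B7 (NM_016371, chromosome 1, 162760492 to 162782613, plus strand), a ketosteroid reductase of cholesterol synthesis, was at 16.4, 17.2 and 28.9 CPM in number 1 (EV, SH2 and SH3), against 11.5, 8.62 and 10.8 in number 13 and 10.5, 11.8 and 14.9 in number 25, a difference of 0.85 (SE 0.13, edgeR adjusted p 0.000818). Neither gene overlapped between the samples numbered 1 and the others. HSD17B7 has a close pseudogene copy, so its counts may hold reads from that copy or lack some of its own.

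CYP51A1 (NM_000786, chromosome 7, 91714301 to 91764117, minus strand), the lanosterol demethylase, was at 232, 169.8 and 181 CPM in EV (numbers 1, 13 and 25), 251, 156 and 179 in SH2 and 333, 169.6 and 213 in SH3, a difference of 0.60 (SE 0.08, edgeR adjusted p 0.000455). SC5D (NM_001024956, chromosome 11, 121163390 to 121184119, plus strand), the sterol desaturase near the end of the path, was at 97.4, 97.8 and 126 CPM in number 1 (EV, SH2 and SH3), against 75.0, 66.5 and 68.9 in number 13 and 73.0, 76.6 and 83.9 in number 25, a difference of 0.53 (SE 0.08, edgeR adjusted p 0.000744). Both sets were fully separated for each gene, at a smaller fold than for MSMO1. The other 6 genes differed by 0.28 to 0.43: SQLE, the squalene epoxidase, by 0.43, DHCR7, which reduces 7-dehydrocholesterol, by 0.42, FDFT1, the squalene synthase, by 0.41, LSS, the lanosterol synthase, by 0.40, EBP, a sterol isomerase, by 0.32, and NSDHL, a sterol dehydrogenase, by 0.28. SQLE was at 385 to 467 CPM in the samples numbered 1 and 258 to 362 CPM in the others. FDFT1 was at 459.6 to 606 CPM in the samples numbered 1 and 332 to 444 CPM in the others, so that neither overlapped. For LSS, EBP, NSDHL and DHCR7 the sets overlapped. The call for EBP was also lost without the SH2 sample numbered 1 or 13 or the SH3 sample numbered 25, and that for NSDHL without the SH2 sample numbered 1. In EV, EBP was at 110.2, 111 and 111 CPM in the samples numbered 1, 13 and 25, so that its number 1 sample did not exceed the other 2. The annotation places 71.8% of the exon bases of CYP51A1 and 57.1% of those of EBP within a further gene model on the same strand, whose reads could not be told apart here.

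Among the 6 genes of SREBP control and sterol transport, 4 were higher in the samples numbered 1 and SREBF1 and SCAP were not called. INSIG2 (NM_016133, chromosome 2, 118846028 to 118868573, plus strand), which retains SCAP in the endoplasmic reticulum, was at 28.3, 31.5 and 74.7 CPM in the EV, SH2 and SH3 samples numbered 1, 12.9, 11.5 and 13.9 in those numbered 13, and 13.3, 13.6 and 18.4 in those numbered 25. Its difference, 1.59 (SE 0.16, edgeR adjusted p 0.000187), was the largest and had the smallest adjusted p of the 34 genes, and without the SH3 sample numbered 1 it was 1.22. The EV and SH2 samples numbered 1 alone lay above all 6 others. INSIG1 (NM_005542, chromosome 7, 155089486 to 155101945, plus strand), the INSIG form whose own gene is an SREBP target, was at 145, 146 and 247 CPM in number 1 (EV, SH2 and SH3), against 97.4, 78.6 and 81.0 in number 13 and 93.3, 92.4 and 116 in number 25, a difference of 0.92 (SE 0.12, edgeR adjusted p 0.000588). STARD4 (NM_139164, chromosome 5, 110831731 to 110848288, minus strand), a soluble carrier that moves cholesterol between membranes, was at 65.4, 34.4 and 39.0 CPM in EV (numbers 1, 13 and 25), 53.1, 25.3 and 34.5 in SH2 and 114, 23.8 and 46.6 in SH3, a difference of 1.16 (SE 0.16, edgeR adjusted p 0.000685). For both, each sample numbered 1 lay above each of the others.

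SREBF1, SREBF2 and SCAP had smaller differences than INSIG1, INSIG2 and STARD4. SREBF2 (NR_103834, chromosome 22, 42229109 to 42303310, plus strand) was at 579, 560.4 and 709.6 CPM in the EV, SH2 and SH3 samples numbered 1, 539.6, 441 and 429.6 in those numbered 13, and 488, 444 and 538 in those numbered 25, with a difference of 0.36 (SE 0.09, edgeR adjusted p 0.00912). SREBF1 (NM_001005291, chromosome 17, 17713713 to 17740316, minus strand) was at 141, 123 and 143 CPM in number 1 (EV, SH2 and SH3), against 152, 97.1 and 89.5 in number 13 and 112, 107 and 126 in number 25, with a difference of 0.26 (SE 0.12, edgeR adjusted p 0.0969). The samples numbered 1 lay above all others for SREBF2, and the sets overlapped for SREBF1, whose highest value was the EV sample numbered 13; without that sample the difference was 0.39 and passed (edgeR adjusted p 0.00348). SCAP (NM_012235, chromosome 3, 47455171 to 47518616, minus strand) was at 173, 180.2 and 194 CPM in EV (numbers 1, 13 and 25), 162, 167 and 174 in SH2 and 142, 154 and 193 in SH3, with a difference of -0.16 (SE 0.07, edgeR adjusted p 0.0789). Its level was lowest in the SH3 sample numbered 1, and without that sample the difference was -0.10 (edgeR adjusted p 0.274).

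**Figure D3:**
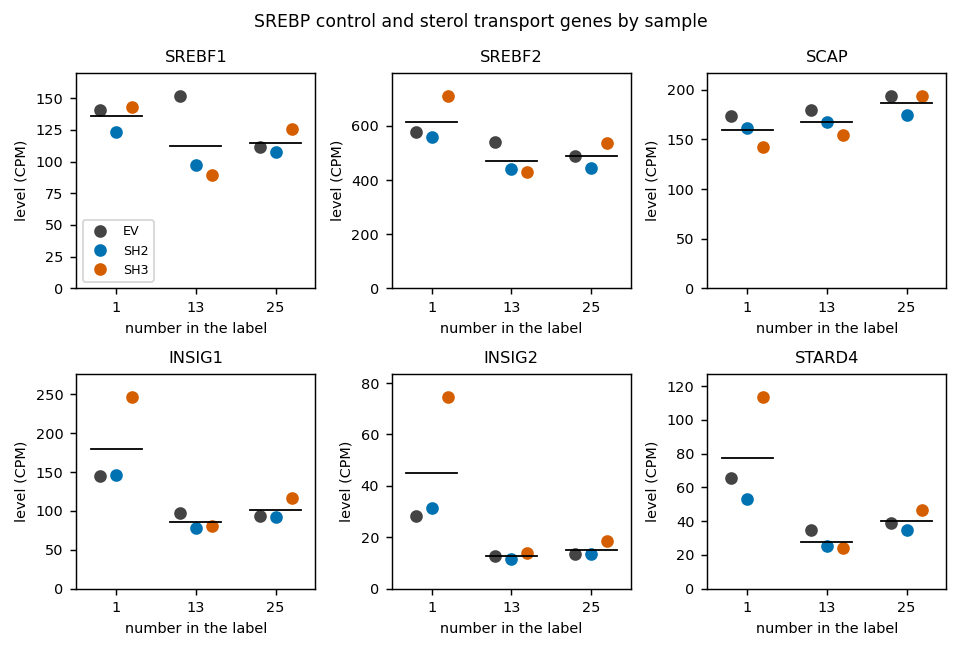
Level (CPM, linear axis from 0) of the 6 genes of SREBP control and sterol transport in each sample, by the number in the label, with EV in grey, SH2 in blue and SH3 in orange and a line at the mean of the 3 samples of a number. INSIG1, INSIG2 and STARD4 are higher in all 3 samples numbered 1 than in any other sample, while SREBF1 and SCAP overlap across the numbers.

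The start regions of 6 of these genes are shown to set the promoters of the genes with a large difference (INSIG1, INSIG2, HMGCS1 and MSMO1) beside those of 2 regulators of SREBP action with a small difference or none called (SREBF2 and SCAP). Each runs 5′ to 3′ on the strand of the gene, from 250 bases before to 50 bases after the start site, from RefSeq on GRCh38.p14. HMGCS1 and INSIG2 each have 2 windows in the table, of which the first listed is shown. Capitals mark the motifs searched on both strands: the sterol regulatory element TCACNCCAC, the E-box-like element TCACGTGA, the NF-Y box CCAAT, which reads ATTGG on the opposite strand, and the Sp1 box GGGCGG, which reads CCGCCC there.
INSIG1 (chr7:155297628-155297927, plus strand): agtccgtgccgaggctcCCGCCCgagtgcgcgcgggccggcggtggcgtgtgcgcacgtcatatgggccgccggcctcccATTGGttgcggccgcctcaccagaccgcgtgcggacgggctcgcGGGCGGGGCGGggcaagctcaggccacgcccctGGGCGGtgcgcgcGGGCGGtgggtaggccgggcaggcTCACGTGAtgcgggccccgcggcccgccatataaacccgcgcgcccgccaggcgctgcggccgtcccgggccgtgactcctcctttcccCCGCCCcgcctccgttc
INSIG2 (chr2:118088221-118088520, plus strand): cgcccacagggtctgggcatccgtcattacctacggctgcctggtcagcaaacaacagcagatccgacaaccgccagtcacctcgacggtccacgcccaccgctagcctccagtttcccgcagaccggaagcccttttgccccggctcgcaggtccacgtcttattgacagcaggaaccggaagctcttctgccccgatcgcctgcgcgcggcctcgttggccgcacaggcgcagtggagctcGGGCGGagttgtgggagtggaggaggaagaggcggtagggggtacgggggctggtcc
HMGCS1 (chr5:43313363-43313662, minus strand): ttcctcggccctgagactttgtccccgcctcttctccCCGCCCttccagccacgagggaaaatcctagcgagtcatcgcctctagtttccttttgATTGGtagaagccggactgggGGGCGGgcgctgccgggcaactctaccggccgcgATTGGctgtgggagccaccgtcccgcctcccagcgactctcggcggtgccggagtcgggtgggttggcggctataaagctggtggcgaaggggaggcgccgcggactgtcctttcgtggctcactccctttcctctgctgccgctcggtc
MSMO1 (chr4:165327419-165327718, plus strand): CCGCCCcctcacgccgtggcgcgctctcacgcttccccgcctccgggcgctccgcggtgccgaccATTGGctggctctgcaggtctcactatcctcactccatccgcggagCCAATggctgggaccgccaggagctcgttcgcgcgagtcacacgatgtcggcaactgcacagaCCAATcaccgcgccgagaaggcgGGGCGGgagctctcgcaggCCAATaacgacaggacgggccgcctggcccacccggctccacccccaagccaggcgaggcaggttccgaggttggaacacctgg
SREBF2 (chr22:41832855-41833154, plus strand): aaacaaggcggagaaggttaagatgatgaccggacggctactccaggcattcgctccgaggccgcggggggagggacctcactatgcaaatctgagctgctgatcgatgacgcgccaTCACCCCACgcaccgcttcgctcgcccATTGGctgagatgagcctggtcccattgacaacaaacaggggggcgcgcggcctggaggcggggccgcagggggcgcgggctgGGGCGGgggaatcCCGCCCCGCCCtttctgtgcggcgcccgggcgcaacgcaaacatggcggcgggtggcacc
SCAP (chr3:47475892-47476191, minus strand): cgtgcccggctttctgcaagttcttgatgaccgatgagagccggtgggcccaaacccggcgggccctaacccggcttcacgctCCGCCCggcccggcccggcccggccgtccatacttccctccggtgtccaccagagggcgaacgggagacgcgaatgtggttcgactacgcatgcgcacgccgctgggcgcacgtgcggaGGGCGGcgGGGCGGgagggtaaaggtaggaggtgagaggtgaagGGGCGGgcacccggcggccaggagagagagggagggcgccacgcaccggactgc

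RefSeq windows were given for 30 of the 34 genes, 43 windows in all. FASN, ACAT2, SQLE and FDFT1 had none. The NF-Y box, whose factor acts beside SREBPs at many sterol genes, was present in 26 of these windows (60.5%), belonging to 22 genes. Its share was 34.6% of all 35116 windows and 34.5% of the windows of genes tested. Windows of the same gene can overlap, so a box can be counted more than once. The Sp1 box was present in 38 windows (88.4%), against 45.0% of all windows and 64.5% of the windows of genes tested. HMGCS1 held 2 NF-Y boxes in the window printed, 155 and 100 bases before its start site, and none in its second window, and MSMO1 held 4, whereas none was found in the windows of INSIG2 or SCAP. The NF-Y box was also present in windows of ACLY and ACACA, which were not higher in the samples numbered 1. It was absent from those of PMVK and SREBF1, which, like SCAP, were not called higher either. Windows of AACS, CYP51A1, FADS1 and ELOVL6, which were higher, held none. The sterol regulatory element in the form searched was found in the window of SREBF2 alone. It was present in 1.13% of all windows and 1.14% of the windows of genes tested. The E-box-like element was found in the window of INSIG1 alone, 56 bases before the start. Its shares were 0.980% of all windows and 1.57% of the windows of genes tested. These are matches of letters in a window and do not show binding.

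Of the 8 genes of fatty acid synthesis and desaturation, 5 were higher in the samples numbered 1, ACACA was lower, and ACLY and FASN were not called. ACSS2 (NM_001076552, chromosome 20, 33459949 to 33515765, plus strand), which makes acetyl-CoA from acetate, was at 84.7, 59.7 and 53.2 CPM in EV (numbers 1, 13 and 25), 83.0, 56.9 and 50.8 in SH2 and 159, 54.9 and 60.2 in SH3, a difference of 0.91 (SE 0.14, edgeR adjusted p 0.00096). SCD (NM_005063, chromosome 10, 102106990 to 102124583, plus strand), the desaturase that places the first double bond in saturated fatty acids, was at 1031, 1072 and 1622 CPM in number 1 (EV, SH2 and SH3), against 752, 648 and 642 in number 13 and 743, 728 and 923 in number 25, a difference of 0.73 (SE 0.11, edgeR adjusted p 0.00106). Neither overlapped between the sets. FADS2, a desaturase of polyunsaturated fatty acids, differed by 0.54, with 671 to 865 CPM in the samples numbered 1 and 429 to 618 CPM in the others. FADS1, the desaturase that acts after it, differed by 0.51, with 212 to 281 CPM in the samples numbered 1 and 140.4 to 211 CPM in the others, so that its sets were separated only narrowly. ELOVL6, an elongase of palmitate, differed by 0.50 and overlapped. FADS1 and FADS2 lie side by side and share 142 exon bases on opposite strands.

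The 3 enzymes that turn citrate into palmitate stood apart from these desaturases. They are given in full although the naming rule did not choose them, because their values were seen to differ from the rest. ACLY, which splits citrate into acetyl-CoA, was at 501, 479.6 and 549 CPM in EV (numbers 1, 13 and 25), 503, 485 and 548 in SH2 and 531, 469.7 and 573 in SH3, with a difference of -0.01 (SE 0.06, edgeR adjusted p 0.89). ACACA, the acetyl-CoA carboxylase, was at 112, 116 and 126 CPM in EV (numbers 1, 13 and 25), 87.3, 99.5 and 104 in SH2 and 80.6, 89.0 and 122 in SH3, with a difference of -0.23 (SE 0.08, edgeR adjusted p 0.0292). FASN, the fatty acid synthase, was at 1396, 1407 and 1772 CPM in EV (numbers 1, 13 and 25), 1046, 1204 and 1493 in SH2 and 1214, 992 and 1633 in SH3, with a difference of -0.20 (SE 0.09, edgeR adjusted p 0.0876). All 3 overlapped between the sets. The call for ACACA was lost without the SH3 sample numbered 1 (log2 difference -0.17, edgeR adjusted p 0.108) and without either the SH2 sample numbered 1 (-0.24, edgeR adjusted p 0.0760) or the SH2 sample numbered 13 (-0.22, edgeR adjusted p 0.0611).

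**Figure D4:**
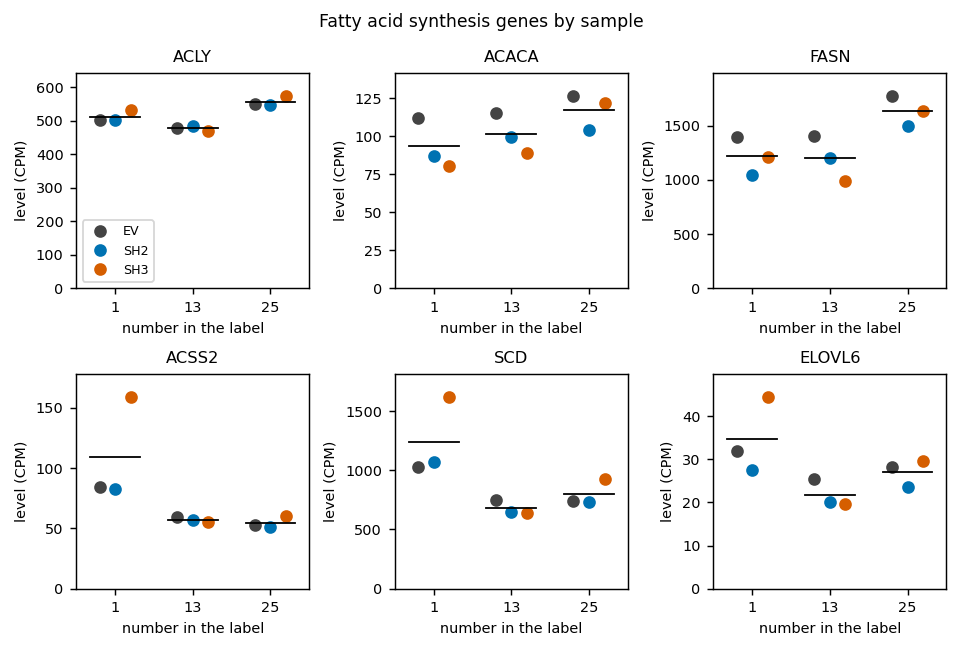
Level (CPM, linear axis from 0) of 6 genes of fatty acid synthesis in each sample, by the number in the label, with EV in grey, SH2 in blue and SH3 in orange and a line at the mean of the 3 samples of a number. ACSS2 and SCD are higher in all 3 samples numbered 1 than in any other sample and ELOVL6 overlaps slightly, whereas ACLY, ACACA and FASN have their highest mean in the samples numbered 25.

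The samples numbered 25 and 13 differed less from each other. FASN alone of the 34 genes was called, higher in number 25 by 0.45 on the log2 scale (SE 0.10, edgeR adjusted p 0.0328), where 2.77% of all genes were called higher. That call was lost when any one of the 6 samples numbered 13 or 25 was left out, at differences of 0.33 to 0.56 and edgeR adjusted p of 0.0726 to 0.161, and without the group term (edgeR adjusted p 0.127). At an unadjusted p under 0.05 there were 14 of the 34 genes, where 23.8% of all genes were, and the median difference was 0.21, beside -0.00057 over all genes. The median was 0.07 without the SH3 sample numbered 13 and 0.34 without the EV sample numbered 13. HMGCS1 differed by 0.66 (SE 0.19, edgeR adjusted p 0.0708) and SQLE by 0.31 (SE 0.08, edgeR adjusted p 0.0535). Without the SH3 sample numbered 1, the number of the 34 genes called between numbers 25 and 13 was 13 and that of all genes rose from 833 to 2750, while the latter was 50 to 252 without the EV sample numbered 13 or 25, the SH2 sample numbered 13 or 25 or the SH3 sample numbered 25. The fitted difference was above 0 for 30 of the 34 genes in the fit on all 9 samples.

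The size of the number 1 difference was set out within each group, where it rests on 1 sample against 2 and has no test. In EV the median over the 34 genes was 0.29 on the log2 CPM scale, with 28 genes above 0. SH2 had a median of 0.45 with 30 genes above 0, and SH3 a median of 0.74 with 30 genes above 0. For INSIG2 the within-group differences were 1.11, 1.33 and 2.22 in EV, SH2 and SH3, and for HMGCS1 0.82, 1.06 and 1.86. The difference between groups was tested as an interaction in edgeR, with the single samples numbered 1 assumed to vary like the others. For SH3 against EV no gene was called (0.0% of 14199, with 1120 at an unadjusted p under 0.05), and 9 of the 34 genes had an unadjusted p under 0.05. The median interaction of the 34 genes was 0.44, beside 0.0015 over all genes. ACSS2 had the smallest adjusted p (log2 difference 0.88, SE 0.19, edgeR adjusted p 0.513), and INSIG2 had the largest interaction (1.10, SE 0.27, edgeR adjusted p 0.539). For SH2 against EV no gene was called either (0.0%, with 164 at an unadjusted p under 0.05), and 0 of the 34 had an unadjusted p under 0.05. By DESeq2 the interaction was called for 0 genes in SH2 and 17 in SH3, none of them among the 34.

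The SH3 sample numbered 1 was the highest of all 9 samples for 28 of the 34 genes, as it was for 28.5% of all genes. The exceptions were PMVK, SREBF1, SCAP, FASN, ACACA and ACLY.

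The second question was whether depletion of ASXL2 altered these genes. None of the 34 was called for SH2 against EV, SH3 against EV, the mean of both shRNAs against EV or SH3 against SH2, and in each of these 4 comparisons 0.0% of all genes were called (edgeR, 1 coefficient per group). None had an unadjusted p under 0.05, where 762, 723, 942 and 293 of all genes did. ASXL2, the gene targeted, was not called in this fit either, so the absence of calls does not show that the 34 genes were unaltered. The median log2 difference of the 34 genes was -0.03 for SH2 against EV, 0.29 for SH3 against EV, 0.14 for both and 0.27 for SH3 against SH2, beside 0.0036 to 0.014 over all genes. These medians depended on single samples. That for SH2 was -0.24 without the SH2 sample numbered 1, 0.11 without the SH2 sample numbered 13 and 0.09 without the EV sample numbered 1. Without the SH3 sample numbered 1 that for SH3 was -0.11, that for both shRNAs was -0.08 and that for SH3 against SH2 was -0.03. INSIG2 differed by 0.05 (SE 0.65) with SH2 and 0.97 (SE 0.65) with SH3, and HMGCS1 by -0.13 (SE 0.55) and 0.55 (SE 0.55). The error of HMGCS1 was as large as its larger difference. SREBF1 differed by -0.30 (SE 0.18) and -0.17 (SE 0.18), and SREBF2 by -0.15 (SE 0.18) and 0.06 (SE 0.18).

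With number added as a block, the errors were smaller and genes outside the list were called: 0.282% for SH2, 0.416% for SH3, 1.1% for both shRNAs and 0.106% for SH3 against SH2. None of the 34 was called by edgeR in this fit, with 4, 15, 4 and 19 of them at an unadjusted p under 0.05, where 18.7%, 18.7%, 20.4% and 11.9% of all genes were. The smallest adjusted p was that of ACACA for both shRNAs (log2 difference -0.29, SE 0.07, edgeR adjusted p 0.0828). DESeq2 with the same block, an alternative added after the data had been seen, called 2 of the 34 in each of 3 comparisons. For SH3 against EV these were INSIG2, higher by 0.69 (SE 0.18, DESeq2 adjusted p 0.00792), and ACACA, lower at -0.30 (SE 0.10, DESeq2 adjusted p 0.0497), with 4.04% of all genes called. ACACA (-0.29, SE 0.08, DESeq2 adjusted p 0.0177) and FASN (-0.28, SE 0.08, DESeq2 adjusted p 0.0201) were lower for both shRNAs against EV, with 5.5% of all genes called. AACS (0.65, SE 0.15, DESeq2 adjusted p 0.00317) and INSIG2 (0.69, SE 0.18, DESeq2 adjusted p 0.0154) were higher in SH3 than in SH2, with 1.29% called. Each of these calls rests on the tool as well as the block. The fits with the block used all 9 samples and were not repeated without the SH3 sample numbered 1. Against the EV sample of the same number, INSIG2 in SH3 differed by 1.40 in number 1, 0.11 in number 13 and 0.46 in number 25.

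In the values given above, both knockdown samples of each number lay below the EV sample of that number for 3 of the 34 genes, SCAP, ACACA and FASN, a pattern found in 11.6% of all genes. The 3 SH2 samples were below all 3 EV samples for ACACA, while SH3 overlapped EV for ACACA and both shRNAs overlapped EV for FASN and SCAP. For SCAP the SH3 and EV samples numbered 25 were nearly equal, at a difference of -0.00085 in log2 CPM.

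Set against the EV sample of the same number, the 34 genes differed in direction between the numbers. With SH3 the median difference in log2 CPM was 0.54 in number 1, where 30 genes were above 0, -0.12 in number 13, where 27 were below 0, and 0.20 in number 25, where 30 were above 0. With SH2 the medians were 0.06, -0.21 and -0.00045, with 22 genes above 0 in number 1, 30 below 0 in number 13 and 17 on each side in number 25. Over all genes tested the 6 medians lay between -0.0031 and 0.028. The 2 shRNAs share their EV samples, and each value rests on 1 pair of samples, so none has a test. For INSIG2 the SH3 differences were 1.40, 0.11 and 0.46 in numbers 1, 13 and 25, and for HMGCS1 0.98, -0.38 and 0.28.

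**Figure D5:**
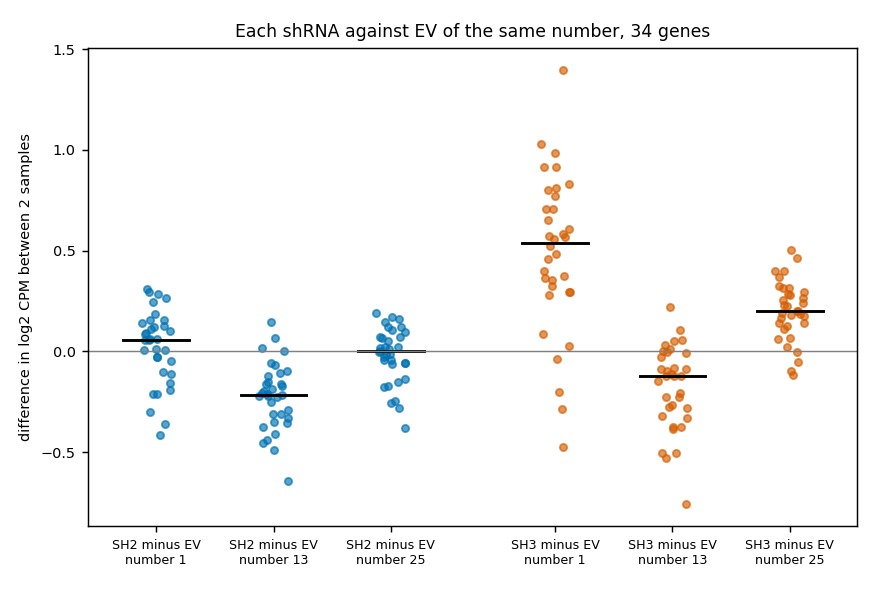
Difference in log2 CPM between each knockdown sample and the EV sample of the same number, with a point for each of the 34 genes and a line at their median, for SH2 (blue) and SH3 (orange). The medians with SH3 are 0.54, -0.12 and 0.20 in numbers 1, 13 and 25 and those with SH2 are 0.06, -0.21 and -0.00045, so that in neither shRNA do the 3 numbers agree in direction.

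Neighbouring pathways were read in the same comparison of number 1 with numbers 13 and 25, against 24.1% of all genes called higher and 22.2% lower. Of 12 other genes of SREBP processing and sterol sensing, 3 were higher and 4 lower, with a median log2 difference of -0.12. TMEM97, a sterol-responsive membrane protein, differed by 0.63, C14orf1 (ERG28), a scaffold of sterol enzymes, by 0.29, UFD1L, part of the complex that draws proteins out of the endoplasmic reticulum for degradation, by -0.68, and ERLIN2, a membrane protein found with the SREBP, SCAP and INSIG complex, by -0.22. The other genes called were named after their values were seen. RDH11, a retinol dehydrogenase, was higher, and MBTPS1 (-0.28) and MBTPS2 (-0.17), the proteases that cut SREBPs, were lower. MBTPS2 (edgeR adjusted p 0.0484) was at 25.5 to 28.7 CPM in number 1, 26.3 to 29.8 in number 13 and 33.4 to 33.8 in number 25. In EV, MBTPS1 was at 171.5 CPM in number 1 and 163.8 in number 13. The count lower in this list was 2 without the SH3 sample numbered 1, the EV sample numbered 25 or the SH2 sample numbered 13. Among the 6 genes of LXR signalling and sterol efflux that were tested, NR1H3, which encodes LXRα, was higher (0.77) and none was lower. MYLIP, a ubiquitin ligase induced by LXR, was not called at 0.21, and neither were the efflux pumps ABCA1 and ABCG1, at differences of -0.27 and 0.31.

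Of 10 genes of sterol storage and lysosomal transport, 7 were tested. NPC2 (0.54), which binds cholesterol in the lysosome, and LIPA (0.38), the lysosomal acid lipase, were higher, and SOAT1 (-0.32), which esterifies cholesterol, was lower. Of 12 genes that use acyl chains, MID1IP1 (0.27), which promotes acetyl-CoA carboxylase assembly, and ELOVL5 (0.22), an elongase, were higher, and GPAM (-0.39), the first enzyme of glycerolipid synthesis, ELOVL1 (-0.24), an elongase, and ACSL1, named after its value was seen, were lower. Of 12 genes of fatty acid oxidation, 3 were higher and 2 lower, among them PPARA (0.63), a nuclear receptor that drives oxidation genes, ACADS (0.39), SLC25A20 (-0.32) and ACADVL (-0.23). The medians of these 3 lists were 0.03, -0.03 and 0.07, and that of the LXR list was 0.16, beside 0.52 for the 34 genes. The counts depended on single samples. Without the SH3 sample numbered 1, 2 genes of sterol storage and lysosomal transport were lower. Among the genes that use acyl chains 1 was then higher, and among those of fatty acid oxidation 1 was higher.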

How the data were processed

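The deposited values were raw counts per RefSeq transcript, with no normalization by the authors, on the hg19 (GRCh37) build. The submitters' processing notes name STAR, featureCounts and DESeq2 without versions or roles, and the study describes unstranded poly(A) libraries. The files hold 48104 rows per sample and 25680 symbols, of which 9509 had several rows, and totals over all rows were 62079356 to 79254366 counts. Each symbol was represented by the row with the highest total. For SREBF2 and GGPS1 that row was a RefSeq non-coding transcript of the gene. Of the 34 members, LSS had the widest gap between rows, the lowest holding 54.1% of the highest.

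Differences were tested with edgeR 4.0.16 in R 4.3.3 (quasi-likelihood F test, TMM, filterByExpr by group default minima of 10 counts and 15 in total), with Benjamini-Hochberg adjustment over all 14199 genes and a threshold of 0.05. The comparison of numbers kept group as a term (4 residual degrees of freedom), the knockdown comparisons had 1 coefficient per group (6) and the interaction fit had 3. Standard errors follow from the size of a log2 difference and its F statistic (size over root F). The log2 CPM values used a prior count of 2. Alternatives were DESeq2 1.42.0, another scaling, filter or row, a correction for transcript length, each sample left out, and the replicate number as a block. The numbers paired the samples: log2 CPM, taken as deviations from each group's mean, correlated across genes with r of at least 0.398 (mean 0.598) in all 9 same-numbered pairs of samples from different groups, and at most 0.306 in the 18 other pairs. The fits were also run on simulated counts. The simulated knockdown held no difference between numbers, unlike these samples, so it does not show what the knockdown fits could find here.

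The members, the other gene lists and the tests were chosen with earlier results of these data known. Values in every sample are given for the 12 called members with the smallest adjusted p between the numbers and for SREBF1, SREBF2 and SCAP, and from each other list at most 4 genes with the smallest adjusted p are given. Gene coordinates are GENCODE (GRCh37), and promoters are RefSeq (GRCh38.p14), for which 30 of 34 symbols matched.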

Additional observations from a re-analysis of the deposited data

How the results depend on the processing

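The count of the 34 genes higher in the samples numbered 1 stayed at 25 to 29 under every alternative run, and it was 26 to 29 when 1 sample was left out. The count lower, 1 in the main setting, was 2 by DESeq2, 3 with the length correction, 0 without the group term, 0 against number 13 only and 3 against number 25 only, and 0 to 2 when 1 sample was left out. For number 25 against number 13, where 1 gene was called, there were 5 without the filter, 2 with the lowest major row, 4 by DESeq2, 3 with the length correction and 0 without the group term, and 0 to 13 when 1 sample was left out. Over the log2 differences of all 34 genes between number 1 and the others, each alternative taken in turn, 587 values kept their direction and their side of the threshold, 8 gained the threshold, 14 lost it and 3 changed direction, none of them called: FASN was at 0.022 and ACLY at 0.098 against number 13 only, and ACLY was at 0.00042 without the EV sample numbered 1. When 1 sample was left out, ACLY was between -0.036 and 0.00042. Of the 8 that gained it, 5 were FASN: by DESeq2, with the length correction, against number 25 only, and without the SH3 sample numbered 1 or 13. At this depth the lowest level that could be shown was 3 counts per library, and every member was above it in every sample.

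With the replicate block, edgeR called 40 genes for SH2, 59 for SH3, 156 for both shRNAs and 15 for SH3 against SH2, and DESeq2 with the block called 369, 474, 629 and 155; DESeq2 without it called 22, 26, 56 and 11. With the length correction added, the block called 9, 48, 28 and 19. None of the 34 genes was called by edgeR in these fits, and DESeq2 with the block called 2 for SH3, 2 for both and 2 for SH3 against SH2. The log2 difference of ASXL2 passed the threshold for SH2, SH3 and both at -1.03, -1.12 and -1.07 by DESeq2, at -1.04, -1.13 and -1.09 with the block, at -1.04, -1.14 and -1.09 by DESeq2 with the block, and at -0.82, -0.96 and -0.89 with the block and length correction. When 1 sample was left out it was -1.08 to -0.95, -1.32 to -1.005 and -1.18 to -1.02, and for both shRNAs it passed without the SH3 sample numbered 1 or 25. In edgeR the block changed no call among the 34 genes. The causes of these changes were not tested.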

Other observations

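The largest log2 difference between the samples numbered 1 and the others among all genes tested was that of CA9, a carbonic anhydrase of the cell surface, chosen after its values were seen. CA9 was at 0.578, 1.14 and 13.1 CPM in the EV, SH2 and SH3 samples numbered 1 and at or below 0.109 CPM in the other 6, higher by 7.23 on the log2 scale (SE 0.51, edgeR adjusted p 4.51e-05), a value that depends on the prior count, since 3 of the 6 had no count.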
